A study of Homo sapiens with 10 samples.

Results

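The 9 genes described here encode cyclic nucleotide phosphodiesterases: PDE3A, PDE3B, PDE4A, PDE4B, PDE4D, PDE5A, PDE7A, PDE8A and PDE10A. They are 9 of the 23170 gene entries in each gene table, and each was found by its symbol. The 9 genes were chosen with FPKM values from these same tables in view, so their differences between lines are given as a description and not as a test. FPKM is the number of sequenced fragments scaled by transcript length and by a library size factor, here from the authors' normalization described below. It allows comparison between genes, and between lines as far as that normalization holds. The data are RNA-seq of 10 samples in 4 groups of the human prostate cancer cell line PC3. PC3-Epi (2 samples) is a luciferase-expressing subpopulation picked for bright bioluminescence and a stable epithelial shape. PC3-EMT14 (3 samples) is a mesenchymal population that was isolated after PC3-Epi cells had been grown together with macrophages. PC3-EMT14-OVOL1 (3 samples) was made from it by transduction with lentivirus carrying the transcription factor OVOL1. PC3-EMT14-OVOL2 (2 samples) was made from PC3-EMT14 with lentivirus carrying OVOL2 in a different construct. Factor and construct therefore cannot be told apart between the OVOL lines. All 4 lines thus descend from the luciferase-marked PC3-Epi cells, and the 3 other lines all descend from 1 mesenchymal population. The control in the deposited comparisons of the OVOL lines is PC3-EMT14 itself.

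Cyclic AMP and cyclic GMP are second messengers that are made inside the cell by adenylyl and guanylyl cyclases and act mainly through protein kinase A, the exchange proteins EPAC, and protein kinase G. Phosphodiesterases hydrolyse them and so end the signal, and because individual enzymes sit at different places in the cell they also shape where the signal spreads. PDE4, PDE7 and PDE8 enzymes act on cAMP, PDE5 acts on cGMP, and PDE3 and PDE10 enzymes act on both. Hydrolysis of cAMP by PDE3 is slowed by cGMP, which links the pathways. Several of the enzymes are drug targets: PDE3 inhibitors are used in heart failure and claudication, PDE4 inhibitors in inflammatory disease, and PDE5 inhibitors in erectile dysfunction and pulmonary hypertension.

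Each table gives 1 pooled FPKM value per group. There was therefore no SD, no replicate check and no known depth, and no difference below can be set against the spread between samples. A gene was counted as different between lines when its higher FPKM was at least 1 and the ratio was at least 2, which is a rule of size and not a test. The lines matched their names. OVOL1 was at 0.0238 FPKM in PC3-EMT14 and at 11.3 in PC3-EMT14-OVOL1, and OVOL2 went from 0.370 to 831 in PC3-EMT14-OVOL2. CDH1, which encodes the epithelial adhesion protein E-cadherin, was at 1.00 FPKM in PC3-EMT14, 16.2 in PC3-EMT14-OVOL1, 39.2 in PC3-EMT14-OVOL2 and 50.6 in PC3-Epi. EPCAM, another epithelial surface gene, was at 23.4, 87.6, 150.6 and 224.5 FPKM in the same order. ZEB1, a repressor of epithelial genes, was at 7.59, 4.25, 1.77 and 0.130 FPKM, and VIM, a mesenchymal intermediate filament gene, at 270.5, 183.4, 76.9 and 42.5. Of 14 macrophage and leukocyte markers, 12 were below 0.1 FPKM in each line, including the defining genes CD14, CSF1R and PTPRC in PC3-EMT14. CD68 was the only one of them at or over 1 FPKM, at 54.1 in PC3-EMT14, 51.2 in PC3-EMT14-OVOL1, 57.8 in PC3-EMT14-OVOL2 and 13.2 in PC3-Epi. Among 6 prostate luminal markers, TMPRSS2 was at 0.967 FPKM in PC3-EMT14 and 5.50 in PC3-Epi.

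The promoter window of PDE5A, the 1 member that met the rule in the higher direction, is shown to give the sequence context of its start. It is the 250 bases before the start of the MANE Select transcript (the agreed reference transcript of a gene) on GRCh37, the assembly that hg19 names, written 5′ to 3′ on the strand of the gene. Capitals mark the motif CACCTG. The window lies at chr4:120549960-120550209 on the minus strand, and the deposited locus of PDE5A begins 22 bases upstream of the MANE Select start.
PDE5A: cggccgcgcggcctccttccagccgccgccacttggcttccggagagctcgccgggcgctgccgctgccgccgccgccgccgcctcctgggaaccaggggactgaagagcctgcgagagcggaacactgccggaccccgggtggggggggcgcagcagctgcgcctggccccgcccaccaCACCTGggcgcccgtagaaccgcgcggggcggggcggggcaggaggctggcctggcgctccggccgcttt
The motif CACCTG, an E-box of the kind that ZEB factors bind, was searched on both strands (CACCTG or CAGGTG). It was present in 2 of 9 member windows, those of PDE4B and PDE5A, against 17.0% of the 16128 genes with such a window. The OVOL consensus that the study names was in 0 of 9 member windows and 0.496% of all windows, also on both strands. The windows follow the MANE Select starts, which were not always close to the deposited starts. The deposited locus began 653931 bases upstream of that start for PDE4D and 385 for PDE4B. It began 1145 bases downstream for PDE10A, 726 for PDE3A and 544 for PDE7A. These matches describe letters in a window and are not evidence of binding. The PDE5A window held 33 CG dinucleotides and 78.8% G and C, and the median over all windows was 19 and 63.6%.

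PDE3A, the cGMP-inhibited enzyme known from heart muscle and platelets, showed the widest range of the 9 genes. It was at 5.24 FPKM in PC3-EMT14, 3.35 in PC3-EMT14-OVOL1, 2.52 in PC3-EMT14-OVOL2 and 0.00404 in PC3-Epi. PC3-EMT14 was the highest line and PC3-Epi had almost no signal, with both OVOL lines in between. In RNA from a whole culture, fewer cells with a transcript and less transcript per cell cannot be told apart. The log2 ratio was -0.61 for PC3-EMT14-OVOL1 and -1.01 for PC3-EMT14-OVOL2 against PC3-EMT14, so only the second met the 2-fold rule, and by a narrow margin. When ratios were centred on the median of all genes in that table, it came to -0.97 and no longer met the rule. The ratio between PC3-Epi and PC3-EMT14 was -10.34 on the log2 scale, but a value this close to 0 can rest on very few fragments. The difference between the log2(FPKM + 1) values of these lines was -2.64. The gene (XLOC_004543, chr12:20522197-20833881, hg19) had 1 isoform entry, so its values do not depend on how fragments were divided between isoforms.

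Most genes around PDE3A did not differ in this way. Of 23 gene entries within 2 Mb, 11 reached 1 FPKM in PC3-Epi or PC3-EMT14, and their median log2 ratio was -0.01. The rule was met by C12orf39 in the higher direction (0.549 FPKM in PC3-EMT14 and 1.85 in PC3-Epi) and by ETNK1, an ethanolamine kinase gene, in the lower (16.7 and 7.88), both named after their values were seen.

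PDE3B (chr11:14665269-14893604), the close relative known from fat and liver, was low throughout and had a different order. It was at 0.651 FPKM in PC3-EMT14, 1.13 in PC3-EMT14-OVOL1, 0.385 in PC3-EMT14-OVOL2 and 0.0335 in PC3-Epi. The OVOL1 line was thus the highest and the OVOL lines lay on opposite sides of PC3-EMT14, with log2 ratios of 0.83 and -0.72. In their own comparison PDE3B was at 1.12 FPKM in the OVOL1 line and 0.384 in the OVOL2 line, a log2 ratio of -1.55 that met the rule. The log2 ratio between PC3-Epi and PC3-EMT14 was -4.28, but both values were below 1 FPKM, so it was not counted. Of 10 neighbouring genes within 2 Mb that reached 1 FPKM, 0 met the rule in any of the 4 comparisons.

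PDE10A (chr6:165740778-166075584), another enzyme for both nucleotides and best known from the striatum, followed the order of PDE3A. Its levels were 1.76 FPKM in PC3-EMT14, 1.22 in PC3-EMT14-OVOL1, 0.636 in PC3-EMT14-OVOL2 and 0.513 in PC3-Epi. Both the OVOL2 line (log2 ratio -1.42) and PC3-Epi (-1.78) met the rule against PC3-EMT14, while the OVOL1 line (-0.50) did not. On the log2(FPKM + 1) scale these ratios were -0.72 for the OVOL2 line and -0.87 for PC3-Epi, since the levels are low. PDE3A and PDE10A were the 2 members that went down at each step from PC3-EMT14 through the OVOL1 and OVOL2 lines to PC3-Epi. Of the 12634 genes with at least 1 FPKM in any line, 12.5% also had this order. The PC3-EMT14 levels in this order came from its comparison with PC3-Epi. For the members those levels were up to 1.03-fold the ones from its comparisons with the OVOL lines. A shift of this kind in other genes would raise the 12.5%.

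**Figure D1:**
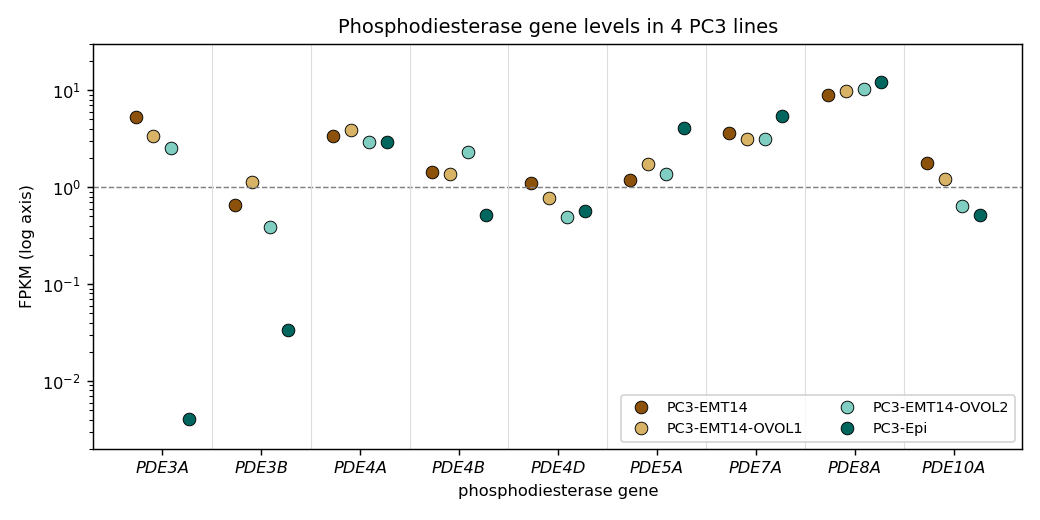
FPKM (log axis) of the 9 phosphodiesterase genes in the 4 lines, with 1 point per line for the authors' pooled value and a dashed line at 1 FPKM. PDE3A and PDE3B are far lower in PC3-Epi (0.00404 and 0.0335) than in the other lines, PDE5A is highest there (4.06), and PDE8A is the most abundant member in every line.

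The cAMP-specific enzymes of the PDE4 subfamily, which are the main targets of anti-inflammatory phosphodiesterase inhibitors, did not move together. PDE4A (chr19:10531333-10580307) had the narrowest range of the subfamily, at 3.39 FPKM in PC3-EMT14, 3.85 in PC3-EMT14-OVOL1, 2.91 in PC3-EMT14-OVOL2 and 2.91 in PC3-Epi. The log2 ratios against PC3-EMT14 lay between -0.22 and 0.22.
PDE4B (chr1:66258193-66840262), the form most studied in leukocytes, was at 1.44, 1.37, 2.30 and 0.521 FPKM in the same order. It was highest in the OVOL2 line (log2 ratio 0.72) and lowest in PC3-Epi (-1.47), and only the latter met the rule, with 0 of 13 neighbouring genes past the floor meeting it beside it. On the log2(FPKM + 1) scale the PC3-Epi value was -0.68.
PDE4D (chr5:58264866-59843484), a widely expressed form, was at 1.10 FPKM in PC3-EMT14, 0.777 in the OVOL1 line, 0.496 in the OVOL2 line and 0.572 in PC3-Epi. It was highest in PC3-EMT14, and the OVOL2 line met the rule (-1.10) while PC3-Epi fell just short of it (-0.94). Because PDE4D was only slightly above 1 FPKM in PC3-EMT14, the OVOL2 value shrank to -0.46 on the log2(FPKM + 1) scale.

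PDE8A and PDE7A are cAMP-specific enzymes of high affinity, and both were highest in PC3-Epi. PDE8A (chr15:85525205-85682372) was the most abundant member in every line, at 8.88 FPKM in PC3-EMT14, 9.77 in PC3-EMT14-OVOL1, 10.3 in PC3-EMT14-OVOL2 and 12.2 in PC3-Epi. It was the 1 member that went up at each step in this order. Of the 12634 genes 7.60% also did, a share that the shift between comparisons described for PDE10A would lower. The log2 ratios of PDE8A against PC3-EMT14 were small (0.17, 0.25 and 0.46). PDE7A (chr8:66629905-66753755) was at 3.61, 3.12, 3.16 and 5.42 FPKM in the same order, so the OVOL lines were slightly below PC3-EMT14 (-0.18 and -0.15) and PC3-Epi above it (0.59).

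PDE5A (chr4:120375938-120549981), the cGMP-specific enzyme, was at 1.19 FPKM in PC3-EMT14, 1.75 in PC3-EMT14-OVOL1, 1.38 in PC3-EMT14-OVOL2 and 4.06 in PC3-Epi. PC3-Epi stood above the other lines, and its log2 ratio of 1.78 made PDE5A the 1 member that met the rule in the higher direction in any comparison. The OVOL lines were at 0.59 and 0.26 and did not meet it. Around PDE5A, 10 genes within 2 Mb reached 1 FPKM, of which 1 was higher and 3 were lower in PC3-Epi by the rule, with a median log2 ratio of -0.12.

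Counted by this rule against PC3-EMT14, the OVOL1 line had 0 of 9 members that met the rule in either direction, beside 2.43% of 12197 genes higher and 1.54% lower. Their median log2 ratio was -0.05, and that of all genes -0.00. The OVOL2 line had 3 of 8 members with at least 1 FPKM that met it in the lower direction (PDE3A, PDE4D and PDE10A) and 0 in the higher, beside 2.93% of 12307 genes lower and 4.42% higher. The medians were -0.16 for the members and -0.04 for all genes. PC3-Epi had 3 of 8 lower (PDE3A, PDE4B and PDE10A) and 1 higher (PDE5A), beside 8.34% of 12441 genes lower and 7.37% higher, with medians of -0.58 and -0.01. The OVOL2 line against the OVOL1 line had 1 of 8 lower (PDE3B) and 0 higher, beside 1.17% of 12188 genes lower and 1.90% higher, with medians of -0.36 and -0.04. The members were selected on these values, so nothing is read from their share against that of all genes. The first 3 comparisons share the PC3-EMT14 samples and are not independent of each other. The 2 members lower by the rule in both the OVOL2 line and PC3-Epi were PDE3A and PDE10A.

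**Figure D2:**
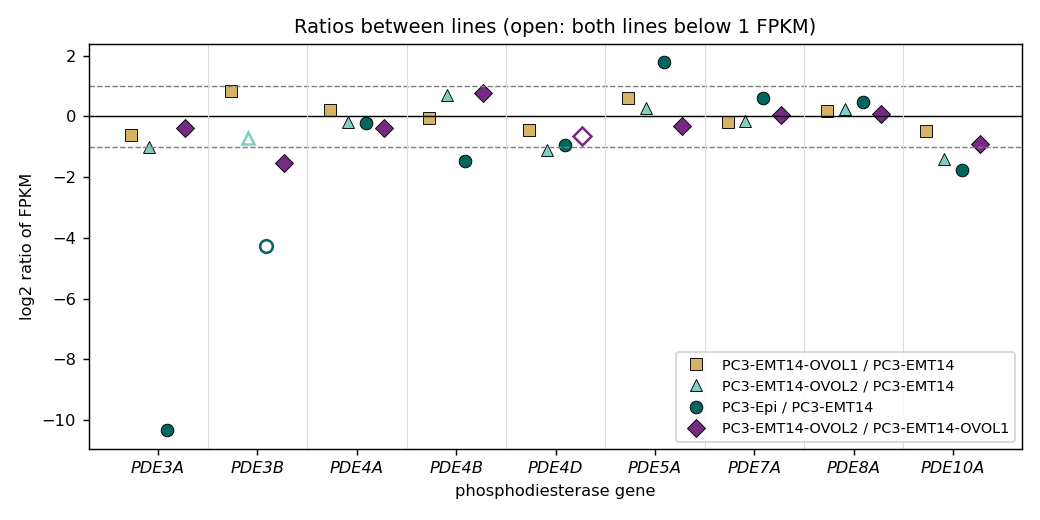
Log2 ratios of FPKM for the 9 genes in the 4 comparisons, with dashed lines at a 2-fold difference and open symbols where both lines were below 1 FPKM. PDE3A in PC3-Epi (-10.34) lies far below all other points, and all 9 ratios of the OVOL1 line against PC3-EMT14 lie within the dashed lines.

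Summed over the family, the level differed less between the lines than its make-up did. The tables hold 21 genes of catalytic phosphodiesterases, of which 11 reached 1 FPKM in some line, and the 9 members supplied between 78.3% and 82.5% of the summed FPKM. The sum was 34.1 FPKM in PC3-EMT14, 32.3 in PC3-EMT14-OVOL1, 29.1 in PC3-EMT14-OVOL2 and 33.6 in PC3-Epi. The share of the 8 genes for both nucleotides went from 41.1% in PC3-EMT14 through 34.6% and 27.2% in the OVOL1 and OVOL2 lines to 21.4% in PC3-Epi. The share of the 8 cAMP-specific genes was 55.1%, 59.6%, 67.0% and 65.2% in the same order. The 5 cGMP-specific genes made up 3.77%, 5.75%, 5.84% and 13.4%. PDE3A alone accounted for 15.4% of the sum in PC3-EMT14, 10.4% in the OVOL1 line, 8.64% in the OVOL2 line and 0.0120% in PC3-Epi. PDE8A went from 26.0% in PC3-EMT14 to 36.5% in PC3-Epi, and PDE5A from 3.48% to 12.1%. The sums are of transcripts and say nothing of enzyme activity.

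**Figure D3:**
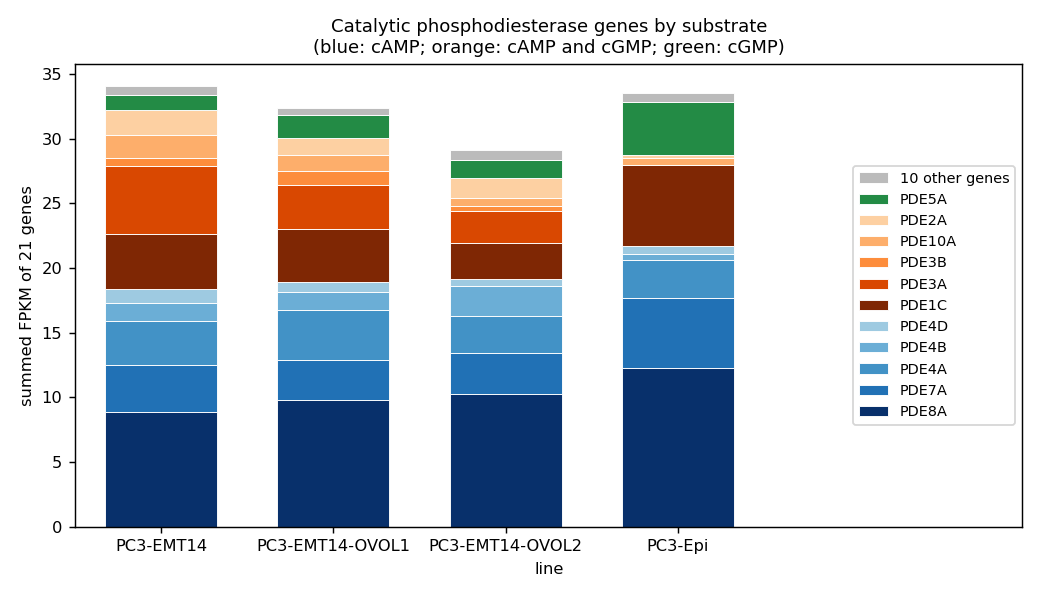
Summed FPKM of the 21 catalytic phosphodiesterase genes in each line, stacked by gene and coloured by substrate. The columns are of similar height (29.1 to 34.1 FPKM), and PDE3A takes up a visible part of every column except that of PC3-Epi, where PDE5A, PDE8A and PDE1C are larger.

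Of the 12 catalytic genes that are not members, 10 stayed below 1 FPKM in every line. The other two were PDE1C and PDE2A, both for both nucleotides. PDE1C, a calcium and calmodulin-dependent enzyme, was at 4.23 FPKM in PC3-EMT14, 4.15 in the OVOL1 line, 2.79 in the OVOL2 line and 6.28 in PC3-Epi, which put it above most members, and it did not meet the rule in any comparison. PDE2A, an enzyme that cGMP stimulates, was at 1.89, 1.30, 1.497 and 0.260 FPKM in the same order, and it met the rule in PC3-Epi (log2 ratio -2.86). PDE6D, a prenyl-binding chaperone without hydrolase activity that carries a family name, lay between 26.1 and 28.0 FPKM in the 4 lines.

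The isoform tables divided several members further. PDE4A, whose gene level met the rule in no comparison, had 4 isoform entries, of which 3 reached 0.1 FPKM. TCONS_00016288 made up 48.0% of PDE4A in PC3-EMT14, 18.6% in the OVOL1 line, 26.5% in the OVOL2 line and 32.0% in PC3-Epi. TCONS_00016287 made up 28.5%, 39.7%, 46.1% and 64.8% in the same order. TCONS_00016286 made up 23.5%, 41.7%, 27.3% and 3.13%. The form that led in PC3-EMT14 was thus behind in the other 3 lines, and PC3-Epi stood apart from the OVOL lines by its near lack of TCONS_00016286 (0.0912 FPKM, against 0.797 in PC3-EMT14).

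The largest change of share for PDE4A against PC3-EMT14 was 29.4 percentage points in the OVOL1 line, 21.5 in the OVOL2 line and 36.4 in PC3-Epi. In both OVOL lines it was that of TCONS_00016288, an entry that the authors' software marked as not tested in those comparisons. A change of at least 20 points was seen in 3.68% of 4270 genes with 2 or more isoforms in the OVOL1 comparison, in 6.20% of 4305 in the OVOL2 comparison and in 8.70% of 4379 in the PC3-Epi comparison. Between the OVOL lines no member reached it, and 3.71% of 4259 genes did. PDE10A was the other member past 20 points, in PC3-Epi only. TCONS_00029560 went from 1.54 FPKM in PC3-EMT14 to 0.323 in PC3-Epi, and TCONS_00029561 was at 0.213 and 0.190, so the low level of the gene in PC3-Epi lay in the first form and its share went from 87.9% to 63.0%. In the OVOL2 line both forms were lower, at 0.591 and 0.0448 FPKM.

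**Figure D4:**
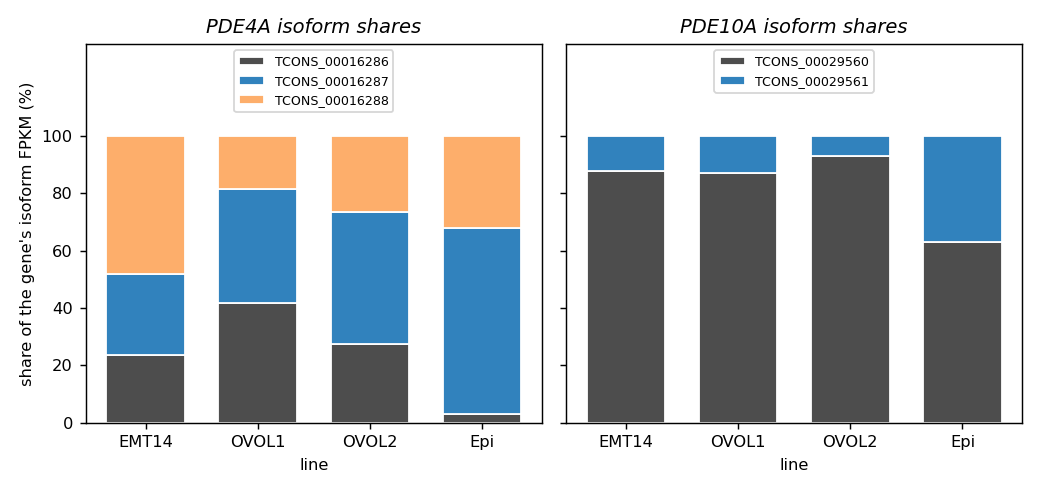
Share of each isoform entry with at least 0.1 FPKM in the summed isoform FPKM of PDE4A (left) and PDE10A (right) in the 4 lines. TCONS_00016288 is the largest share of PDE4A in PC3-EMT14 (48.0%) but not in the other lines, and TCONS_00029561 reaches 37.05% of PDE10A in PC3-Epi.

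PDE8A had a minor form, TCONS_00011402, at 0.0789 FPKM in PC3-EMT14, 0.751 in the OVOL1 line, 0.749 in the OVOL2 line and 0.674 in PC3-Epi. Its share was 0.889% in PC3-EMT14 and 7.69%, 7.30% and 5.50% in the others, so the 3 lines with higher CDH1 all had more of it, while the main form differed by at most 0.40 on the log2 scale. PDE5A likewise had a minor form, TCONS_00026059, at 0.0570 FPKM in PC3-EMT14, 0.171 in the OVOL1 line, 0.165 in the OVOL2 line and 0.455 in PC3-Epi. These levels are below 1 FPKM, and the division of 50-base reads between overlapping isoforms is an estimate whose error is unknown here. The tables name isoforms only by their entry and gene locus, so the exons that tell them apart were not analysed here.

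The genes that make, sense and respond to cyclic nucleotides were counted by the same rule from lists of pathway genes. On the cGMP side, 9 genes of guanylyl cyclases and natriuretic peptide receptors were listed and 4 reached 1 FPKM in PC3-Epi or PC3-EMT14, of which 2 were higher and 1 lower in PC3-Epi. In each OVOL line 3 reached 1 FPKM, 0 were higher and 1 was lower. GUCY1A3, the alpha subunit of the nitric oxide receptor, was at 1.10 FPKM in PC3-EMT14, 0.928 in the OVOL1 line, 1.27 in the OVOL2 line and 8.78 in PC3-Epi (log2 ratio 2.99). Like PDE5A, it was high in PC3-Epi and not in the OVOL lines. NPR3, the clearance receptor for natriuretic peptides, was at 0.118 FPKM in PC3-EMT14 and 1.17 in PC3-Epi. NPR2, a receptor that makes cGMP, went the other way, at 2.54, 1.15, 1.01 and 0.877 FPKM, and met the rule in all 3 lines against PC3-EMT14 (-1.11, -1.28 and -1.54).
PRKG1, the main cGMP-dependent protein kinase, was at 4.20 FPKM in PC3-EMT14, 2.11 in the OVOL1 line, 1.63 in the OVOL2 line and 0.545 in PC3-Epi. It was 1 of 4 protein kinase G and EPAC genes, 2 of which reached 1 FPKM, and met the rule in the OVOL2 line (-1.32) and PC3-Epi (-2.95). PC3-Epi thus had higher levels of GUCY1A3 and PDE5A, and a lower level of PRKG1, than PC3-EMT14.

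**Figure D5:**
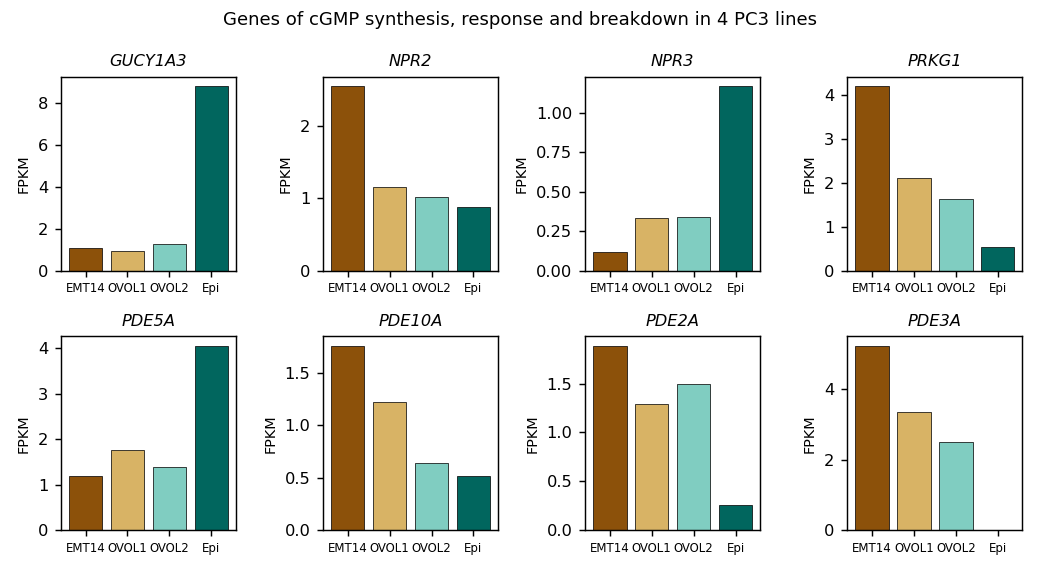
FPKM of 8 genes of cGMP synthesis, binding, response and breakdown in the 4 lines, each panel with its own axis from 0. GUCY1A3, NPR3 and PDE5A are highest in PC3-Epi (8.78, 1.17 and 4.06), whereas NPR2, PRKG1, PDE10A, PDE2A and PDE3A are lowest there.

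On the cAMP side fewer genes met the rule. Of 10 adenylyl cyclases, 5 reached 1 FPKM, and 1 of them, ADCY7, was lower in PC3-Epi (8.55 FPKM in PC3-EMT14 and 3.44 in PC3-Epi). Of 10 protein kinase A subunits and inhibitors, 8 reached 1 FPKM and 1 was lower in PC3-Epi, PKIA, a peptide inhibitor of the kinase (35.4 and 16.3 FPKM). Among 14 A-kinase anchoring proteins, which hold the kinase and often a phosphodiesterase in place, 10 reached 1 FPKM. AKAP12 was lower in PC3-Epi (67.3 and 26.7 FPKM) and AKAP5 higher (0.872 and 1.97). None of these 4 genes met the rule in an OVOL line.
Among 12 receptors that couple to Gs, 6 reached 1 FPKM in PC3-Epi or PC3-EMT14. VIPR1, the receptor for vasoactive intestinal peptide, was higher in PC3-Epi (0.0988 FPKM in PC3-EMT14 and 1.09). PTGER2, a prostaglandin E2 receptor, was lower in the OVOL2 line (2.57 FPKM in PC3-EMT14 and 1.02) and in PC3-Epi (2.65 and 1.18). Of 7 Gs and Gi alpha subunits, 5 reached 1 FPKM and GNAZ, of the Gi class, was lower in PC3-Epi (4.50 and 2.02 FPKM).
The 7 genes of the CREB family and its coactivators and the 2 cyclic nucleotide exporters all reached 1 FPKM, and 0 met the rule in any comparison. Of 10 genes listed as quick targets of cAMP, 5 reached 1 FPKM and 1 met it, DUSP1, a phosphatase gene, in the OVOL2 line (6.72 FPKM in PC3-EMT14 and 13.8). These 5 include CRTC2, a coactivator that is also counted in the CREB list and is not itself a quick target.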

How the data were processed

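The authors mapped the 50-base paired-end reads with TopHat 2.0.2 to hg19 and compared the lines in pairs with Cuffdiff 2.0.2, using upper-quartile and compatible-hits normalization and corrections for multi-mapped reads and sequence bias. The deposited FPKM values are the authors' pooled values, 1 per group and table (4 gene tables and 4 isoform tables with 37557 entries). The authors' fold changes, test statistics, p-values and q-values were not used, and 0 value columns were otherwise left out. Depth per sample is unknown, so no interval or detection limit was computed. In the tables the name of the PC3-Epi group lacks a suffix that the names of the 3 others carry, whose meaning is not stated, so any difference in handling cannot be told apart from the line.

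Ratios were computed within each table in Python 3.11.15 with numpy 2.4.6 and pandas 2.3.3, and plots were drawn with matplotlib 3.10.9. Levels of PC3-EMT14 given across the lines are from its table with PC3-Epi, and those of the others from their table with PC3-EMT14. Where only an OVOL line is set beside PC3-EMT14, or the OVOL lines beside each other, both values are from the table of that comparison. The level of a member in 1 line differed between tables by at most 1.03-fold. Isoform shares used entries with at least 0.1 FPKM. Promoter windows of 250 bases were read from GRCh37 at MANE Select starts of GENCODE, matched by symbol, and positions are counted from 1. The members, gene lists and rules were chosen with earlier results of these data known. Genes named are the members, other phosphodiesterases with at least 1 FPKM, up to 4 genes per list that met the rule, the line checks, and the 5 genes nearest to PDE3A in profile. Some items covered by these rules are not reported here.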

Additional observations from a re-analysis of the deposited data

How the results depend on the processing

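No paired analysis was possible because each table holds 1 pooled value per group, and leaving out a replicate was not possible for the same reason. The numbers of genes meeting the rule were 484 for the OVOL1 line, 904 for the OVOL2 line and 1954 for PC3-Epi against PC3-EMT14, and 375 between the OVOL lines. In that order they became 1073, 1851, 3915 and 910 with a ratio of 1.5, 213, 336, 803 and 114 with a ratio of 4, 3383, 3981, 5788 and 3049 with no FPKM minimum, and 237, 479, 1129 and 210 with a minimum of 5 FPKM. On the log2(FPKM + 1) scale they became 300 for the OVOL1 line, 595 for the OVOL2 line and 227 between the OVOL lines. The numbers of members meeting the rule were 0, 3, 4 and 1. With a ratio of 1.5 they were 3 for the OVOL1 line and 3 between the OVOL lines. With a ratio of 4 they were 0 for the OVOL2 line, 1 for PC3-Epi (PDE3A) and 0 between the OVOL lines. With a minimum of 5 FPKM they were 1, 1 and 0, and on the log2(FPKM + 1) scale 0, 2 and 0. These shifts follow from the construction of each alternative, which sets how many genes can meet the rule. No member's ratio that met the rule changed sign. Centring on the median of all genes left PDE4D and PDE10A as the 2 members meeting the rule in the OVOL2 line. The log2(FPKM + 1) scale moved 7 of 36 member ratios by more than 1.5-fold, and centring and summing isoform entries moved 0 of 36.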

Other observations

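The genes whose profile over the 4 lines lay nearest to that of PDE3A were sought among 12634 genes by the distance between centred log2(FPKM + 0.1) values over 4 pooled points, a description without a test. The nearest was HSD17B2, an enzyme that oxidises sex steroids, at 22.1 FPKM in PC3-EMT14, 11.6 in the OVOL1 line, 7.14 in the OVOL2 line and 0.211 in PC3-Epi (distance 0.447). CST1, a cystatin, was at 5.76, 4.22, 4.42 and 0.00981 FPKM in the same order (distance 0.560), and ALDH2, the mitochondrial aldehyde dehydrogenase, at 12.4, 6.22, 3.52 and 0.170 FPKM (distance 0.702). IL1B, which encodes interleukin-1 beta, was at 733.1, 764.8, 737.7 and 23.4 FPKM (distance 0.757), and PLAT, the tissue plasminogen activator, at 332.5, 325.1, 134.5 and 9.99 FPKM (distance 0.780). IL1B thus stayed level in both OVOL lines where PDE3A was lower, so the likeness rests mainly on PC3-Epi.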
